A study of Mus musculus with 12 samples.

Results

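Mouse bone marrow cells that carried a short CALM-AF10 fusion were compared with cells that carried a CALM-AF10 fusion from which the region named OM-LZ had been removed. The short fusion joins residues 400 to 648 of CALM to residues 677 to 758 of AF10 and is called the minimal fusion here; the other is labelled CALM-AF10 ΔOM-LZ. All samples titled with either construct were taken, 3 arrays each, so 6 of the 12 arrays of the series enter the comparison. The members are the 21789 probe sets with 1 gene symbol, of 35556 on the array, and they stand for 19938 genes. The other 6 arrays, 3 of the empty retroviral vector MIG and 3 of the full CALM-AF10 fusion, shared the estimate of the spread and are given beside the comparison.

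All 4 groups came from adult mice of the strain labelled C57/BL6/C3H that had received 5-fluorouracil (30 µg/µl, 100 µl per 20 g), with marrow taken 4 days later. The marrow was stimulated for 48 h and then laid over irradiated (40 Gy) GFP+E86 cells that shed the virus, with cytokines and protamine sulfate (5 µg/ml). After 48 h more in culture GFP-positive cells were sorted, and RNA stands for cells 96 h after transduction. The MIG arrays are therefore also drug-treated, cytokine-stimulated, virus-exposed and GFP-sorted marrow, and no array holds untreated marrow. Each sample is a mixed sorted population and not a clone, the fusions are expressed from a retroviral vector and not from the Picalm locus, and the labels do not give the number of mice behind a sample.

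CALM is an adaptor of clathrin-coated vesicles, and AF10 is a chromatin protein that binds DOT1L, the methyltransferase of a lysine within the core of histone H3. OM-LZ stands for the octapeptide motif and leucine zipper of AF10, the stretch through which it contacts DOT1L, and the minimal fusion keeps it. Acute leukaemias with CALM-AF10 are known for high expression of the HOXA genes, which encode homeodomain factors of stem and progenitor cells that are normally shut down as myeloid cells mature. The comparison therefore sets a fusion with OM-LZ against a fusion without it, although the constructs also differ in how much of CALM and AF10 they hold, and these differences cannot be told apart.

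The marrow identity of the samples was checked first. Ptprc, the pan-leukocyte phosphatase CD45, ran from 10.0 to 10.9 on the log2 intensity scale over the 12 arrays, and Mpo, the myeloperoxidase of granulocyte precursors, from 12.1 to 13.4. The collagen genes Col1a1, Col1a2 and Col3a1, which mark fibroblasts, lay between the 49th and the 53rd percentile by mean level. The percentile is over all probe sets with a gene symbol. Array medians ran from 6.58 to 6.69. Within ΔOM-LZ the arrays correlated with r = 0.9770 to 0.9817 over probe sets, within the minimal fusion with r = 0.9834 to 0.9897, and between the groups with r = 0.9723 to 0.9892, so the groups did not separate by overall correlation. Replicate 1 of ΔOM-LZ stood apart from the other arrays of its group in several lists of marker genes, and values that moved by over 1.5 times without it are given both ways where the difference was above 0.5 in size.

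The genes with the clearest difference were in the HOXA cluster. Of 23410 probe sets tested, 4 (0.0171%) passed an adjusted p of 0.05 as higher in the minimal fusion and 0 passed as lower (limma, Benjamini-Hochberg). Other settings called at most 1 as lower, Kcnma1 with a trended, robust variance prior or Stx11 without MIG replicate 1. The 4 were Hoxa9, Hoxa6, Hoxa10 and one of the probe sets of Mecom. At an unadjusted p under 0.05 there were 960 (4.1%), of which 390 (1.67%) were higher and 570 (2.43%) lower. Over the 19938 genes 50.6% were higher in the minimal fusion, the median difference was 0.00 on the log2 scale, and the median SD within a group was 0.18. The count of 4 became 0 when the 6 arrays were fitted alone, and 1, Hoxa9, when the array left out was replicate 1 or 2 of ΔOM-LZ or 2 or 3 of the minimal fusion. It became 2 when it was replicate 2 of MIG, 1 or 3 of CALM-AF10, 3 of ΔOM-LZ or 1 of the minimal fusion.

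The promoters of the 3 HOXA genes that passed are shown because these genes moved together and lie within one stretch of chromosome 6. Each sequence runs from 250 bases before to 50 bases after a RefSeq start, read 5′ to 3′ on the minus strand of GRCm38.p6, and capitals mark a match, on either strand, to a searched motif. The motifs searched were TATAAA (the TATA box), CCAAT (bound by NF-Y), TGACAG (the core that MEIS proteins bind) and the HOX and PBX pair motif TGATTNAT. The Hoxa6 promoter is at chr6:52208623-52208922, that of Hoxa9 at chr6:52227321-52227620, and the start of Hoxa10 shown is the one at chr6:52234890-52235189.
Hoxa6: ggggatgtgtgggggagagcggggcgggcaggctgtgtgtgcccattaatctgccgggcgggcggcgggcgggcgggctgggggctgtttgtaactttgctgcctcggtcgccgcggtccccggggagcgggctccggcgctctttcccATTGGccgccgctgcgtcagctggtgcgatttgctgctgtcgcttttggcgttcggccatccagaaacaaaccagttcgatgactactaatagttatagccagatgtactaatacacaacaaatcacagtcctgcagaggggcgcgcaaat
Hoxa9: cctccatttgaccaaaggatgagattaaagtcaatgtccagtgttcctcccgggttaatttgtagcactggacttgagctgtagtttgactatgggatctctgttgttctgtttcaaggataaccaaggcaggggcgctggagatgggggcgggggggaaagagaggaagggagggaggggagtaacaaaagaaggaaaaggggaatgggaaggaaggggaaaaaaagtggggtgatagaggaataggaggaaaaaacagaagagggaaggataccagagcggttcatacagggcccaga
Hoxa10: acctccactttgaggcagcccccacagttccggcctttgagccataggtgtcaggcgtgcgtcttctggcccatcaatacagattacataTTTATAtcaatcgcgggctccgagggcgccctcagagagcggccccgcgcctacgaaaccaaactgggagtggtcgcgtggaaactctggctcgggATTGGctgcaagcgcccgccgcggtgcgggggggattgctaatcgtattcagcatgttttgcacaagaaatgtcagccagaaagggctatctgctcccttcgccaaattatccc

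No motif was found in all 3 promoters. Hoxa6 and Hoxa10 each held 1 CCAAT match, and the Hoxa10 promoter also held 1 TATAAA match. Hoxa9 held none of the 4 motifs. Over 32851 RefSeq promoters of the same length, 37.4% held CCAAT, 13.6% TATAAA, 19.2% TGACAG and 3.22% the pair motif. The Hoxa6 promoter held 26 CG pairs and that of Hoxa10 held 21, against a median of 7, while the Hoxa9 promoter held 4. Hoxa10 has a further start in RefSeq, at chr6:52240805-52241104, with 12 CG pairs and no motif match.

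Hoxa9 encodes a homeodomain factor that transforms marrow progenitors together with MEIS1. On the arrays of ΔOM-LZ its log2 intensity was 8.64, 8.57 and 8.63, and on those of the minimal fusion 9.94, 10.09 and 10.13. The groups were separated by more than a full log2 unit, while the arrays within a group lay close together. The difference was 1.44 (SE 0.11, a fold of 2.72) with a limma adjusted p of 0.000886. The call held without any single array and was lost on the 6 arrays alone (adjusted p = 0.0556). MIG arrays stood at 8.74, 8.44 and 8.81 and CALM-AF10 arrays at 9.03, 8.94 and 8.95, so all 3 minimal fusion arrays were above every other array.

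Hoxa6 lies on the other side of Hoxa7 from Hoxa9 and had the largest difference of the cluster. Its ΔOM-LZ arrays read 7.25, 6.94 and 7.37 and its minimal fusion arrays 8.58, 9.04 and 8.79, a difference of 1.61 (SE 0.16, a fold of 3.06, limma adjusted p = 0.0111). Hoxa10, a regulator of progenitor expansion, read 6.87, 6.72 and 6.65 with ΔOM-LZ and 8.02, 8.24 and 7.87 with the minimal fusion. That difference was 1.30 (SE 0.15, a fold of 2.46, limma adjusted p = 0.0282). For both genes the lowest minimal fusion array was above the highest of the other 9. The Hoxa6 call was lost, at adjusted p of 0.0668 to 0.0796, without ΔOM-LZ replicate 1 or 2 and without minimal fusion replicate 2 or 3. That of Hoxa10 was lost without any one of the ΔOM-LZ or minimal fusion arrays, without CALM-AF10 replicate 1 or 3 and without MIG replicate 2, with 0.223 as the highest adjusted p. It was also lost with the replicate number as a block (adjusted p = 0.106) and with arrays centred on their median (0.0561).

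Of the other HOXA genes, several had differences of the same size whose adjusted p missed the threshold. Hoxa5 read 6.63, 6.36 and 6.89 with ΔOM-LZ and 7.97, 8.19 and 8.07 with the minimal fusion (difference 1.45, limma adjusted p = 0.0733). Hoxa7 read 8.43, 7.63 and 8.70 against 9.43, 9.69 and 9.36 (1.24, limma adjusted p = 0.400). Its ΔOM-LZ arrays were more spread out than those of its neighbours, with replicate 2 the lowest. Hoxa3, at the low end of the intensity scale, read 5.55, 5.58 and 5.72 against 6.39, 6.71 and 7.02 (1.09, limma adjusted p = 0.0738), and Hoxa2 differed by 0.46. Hoxa4, Hoxa11 and Hoxa13 had overlapping groups and differences of 0.30, 0.08 and 0.13. The difference was thus above a full log2 unit for Hoxa3, Hoxa5, Hoxa6, Hoxa7, Hoxa9 and Hoxa10 and smaller at Hoxa2, Hoxa4, Hoxa11 and Hoxa13.

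**Figure D1:**
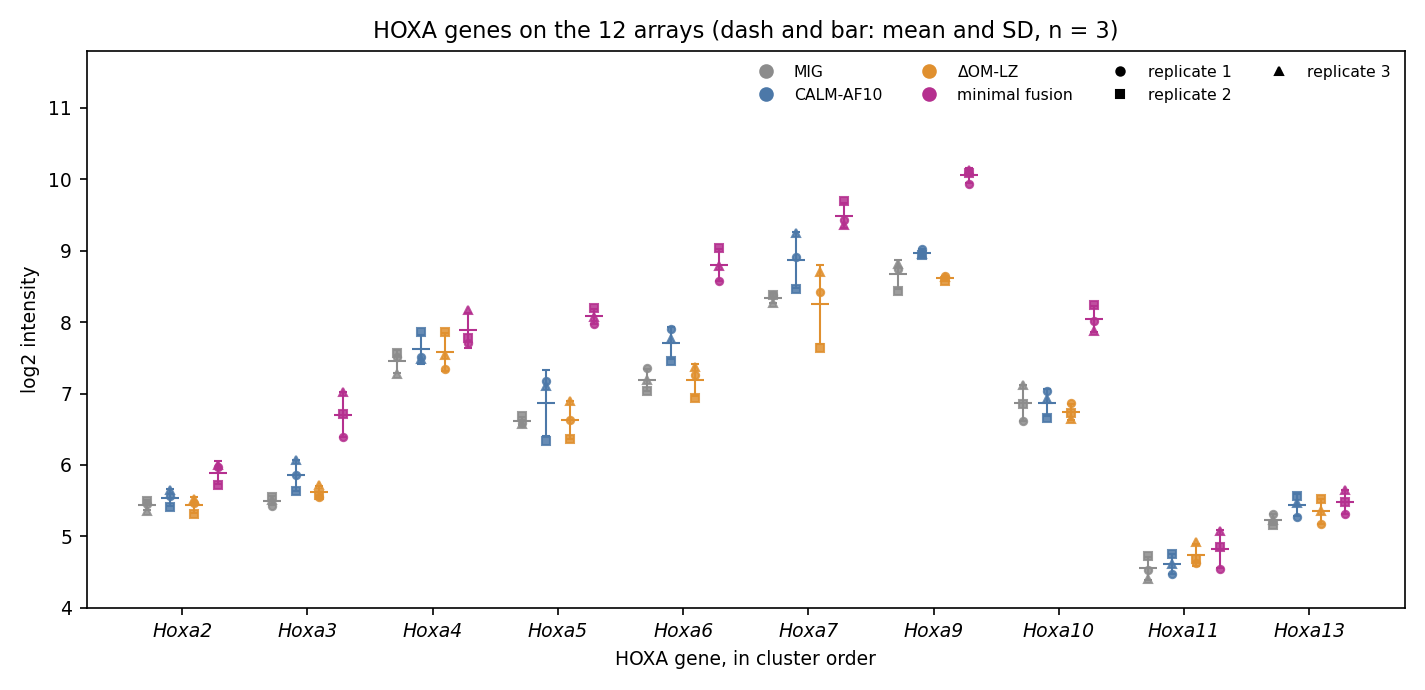
Log2 intensity of the 10 measured HOXA genes, in cluster order, on the 12 arrays; points are arrays (shape gives the replicate number), the dash and bar are the mean and SD of 3 arrays, and colour gives the construct. From Hoxa5 to Hoxa10 the minimal fusion arrays lie above all ΔOM-LZ arrays, with Hoxa9 at 9.94 to 10.13 against 8.57 to 8.64, while Hoxa4, Hoxa11 and Hoxa13 overlap.

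As a list, all 10 measured HOXA genes were higher in the minimal fusion, 3 of them past the adjusted threshold, and 7 had groups that did not overlap. Over all genes, 8.09% had non-overlapping groups, 3.74% with the minimal fusion higher and 4.34% with it lower. The median HOXA difference was 1.16, beside 0.00 over all genes. The mean of the members per array, after each was centred on its mean over the 12 arrays (the list score), was -0.29, -0.37 and -0.16 with ΔOM-LZ and 0.50, 0.69 and 0.72 with the minimal fusion. MIG arrays scored -0.32 to -0.30 and CALM-AF10 arrays -0.18 to 0.04, so the minimal fusion stood above the other 3 groups. The median was 1.19 without ΔOM-LZ replicate 1.

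The microRNA gene Mir196b lies between Hoxa9 and Hoxa10 and was looked at after its value was seen. Its mature forms are shown because its gene is embedded in the part of the cluster that moved, with the seed (bases 2 to 8) in capitals; their RefSeq positions are chr6:52230129-52230150 and chr6:52230094-52230115, minus strand of GRCm38.p6.
mmu-miR-196b-5p: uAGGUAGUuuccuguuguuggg
mmu-miR-196b-3p: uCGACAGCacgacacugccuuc

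The Mir196b probe set read 6.15, 5.92 and 5.52 with ΔOM-LZ and 7.10, 6.41 and 6.88 with the minimal fusion, without overlap. The difference was 0.93 (SE 0.22, limma adjusted p = 0.514). A probe set of this kind can read the precursor or the surrounding transcript, and mature miR-196b was not measured. Genes of the other HOX clusters had smaller differences, with a median of 0.04. Of 27, 20 were higher, 0 passed the adjusted threshold and 3 (11.1%) had non-overlapping groups, beside 8.09% of all genes. Hoxb2 had the highest value among those named, 0.49 (limma adjusted p = 0.999).

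The genes of proteins that bind DNA with HOX factors had small differences for the most part. Of 8 measured members of the MEIS, PBX and PKNOX families, 5 were higher and 3 lower, none passed the adjusted threshold and the median was 0.01. Their score was -0.03, -0.12 and -0.05 with ΔOM-LZ and 0.06, -0.01 and 0.0006 with the minimal fusion, without overlap, while MIG arrays ran from -0.02 to 0.25. Meis1, the partner of HOXA9 in leukaemia, read 10.58, 9.21 and 9.81 with ΔOM-LZ and 10.93, 10.54 and 10.66 with the minimal fusion. Its difference of 0.84 had a 95% interval from -0.05 to 1.74, and the highest ΔOM-LZ array was above the lowest of the minimal fusion. It was 0.52 without ΔOM-LZ replicate 2 and 1.20 without replicate 1 of that group. Pknox1, a MEIS-related partner, was the member without overlap, at 0.28 (limma adjusted p = 0.999). Pbx2 and Pbx3 differed by 0.01 each, Pbx4 by 0.17, Meis2 by -0.11, Meis3 by -0.12 and Pknox2 by -0.41. The direction of Pbx2 and Pbx3 turned when single arrays were left out.

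Mllt10 and Dot1l, the endogenous genes of AF10 and of the methyltransferase it binds, had differences near 0. Mllt10 read 10.27, 10.35 and 10.44 with ΔOM-LZ and 10.56, 10.21 and 10.31 with the minimal fusion, a difference of 0.00 with a 95% interval from -0.27 to 0.27. Dot1l differed by 0.02, with an interval from -0.27 to 0.30, and for both genes the sign turned when single arrays were left out. Picalm was not analysed here, and which part of AF10 the Mllt10 probes read is unknown, so the value does not check the constructs. Over 16 genes of the DOT1L and AF10 complexes, 9 were higher and 7 lower with a median of 0.01. The elongation factor gene Aff3 had the highest difference, 0.66, with overlapping groups, and Psip1, a chromatin tether of the MLL complex, was the member without overlap, at 0.34 (limma adjusted p = 0.999 for both).

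Mecom, which encodes the zinc finger factor EVI1 of stem cells and of some myeloid leukaemias, was the gene outside the HOXA cluster that passed. It has a pair of probe sets. The dimmer read 5.59, 5.33 and 5.45 with ΔOM-LZ and 6.83, 6.52 and 6.72 with the minimal fusion (1.23, SE 0.16, a fold of 2.35, limma adjusted p = 0.0473). The brighter read 6.93, 6.01 and 6.45 against 8.81, 8.67 and 8.13, a larger difference of 2.08 with a larger error (SE 0.38, a fold of 4.22, limma adjusted p = 0.320). In both the minimal fusion arrays were also above all MIG and CALM-AF10 arrays. The call on the dimmer probe set was lost without any single array other than CALM-AF10 replicate 2, with adjusted p from 0.0552 to 0.249, and also with quantile normalization (0.107) and median centring (0.0729).

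Progenitor transcription factors as a list had a smaller shift than the HOXA genes. Of 27 measured, 20 were higher and 7 lower, and the median was 0.21. Groups did not overlap for 8 (29.6%) with the minimal fusion higher and 1 (3.70%) with it lower. Over all genes those shares were 3.74% and 4.34%. No member passed the adjusted threshold by its brightest probe set. The list score was -0.01, -0.32 and -0.18 with ΔOM-LZ and 0.32, 0.12 and 0.16 with the minimal fusion. CALM-AF10 arrays spanned -0.25 to 0.22 and MIG arrays -0.17 to 0.16, so the scores of the minimal fusion overlapped theirs. Without ΔOM-LZ replicate 1, 22 were higher and 5 lower and the median was 0.22.

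Eya1, a phosphatase and transcriptional coactivator, had the largest positive difference of any gene without overlap. It read 7.09, 5.98 and 6.41 with ΔOM-LZ and 9.21, 8.85 and 9.004 with the minimal fusion (2.53, SE 0.42, a fold of 5.77, limma adjusted p = 0.197). Nkx2-3, a homeobox gene, read 6.68, 6.98 and 7.04 against 7.98, 7.73 and 8.21 (1.07, limma adjusted p = 0.0733). The minimal fusion arrays of both genes were above every other array of the series. Lmo2 (0.71), a bridging factor of stem cell transcription complexes, and Sox4 (0.60), an HMG box factor, were picked out after their values were seen; neither had overlapping groups and neither passed (limma adjusted p = 0.400 and 0.726). Skida1, also picked out afterwards and named for its similarity to the SKI and DACH proteins, read 4.81, 5.08 and 5.19 against 5.62, 5.83 and 6.34 (0.91, limma adjusted p = 0.320).

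Other regulators of stem and progenitor cells went the other way or differed little. Runx1, the core factor of definitive haematopoiesis, read 11.96, 11.55 and 11.48 with ΔOM-LZ and 11.34, 11.13 and 11.40 with the minimal fusion (-0.38, limma adjusted p = 0.999). Gata2, shared by stem cells and mast cells, differed by -0.63 and Fli1 by -0.11, both with overlapping groups. Without ΔOM-LZ replicate 1 the differences of Runx1 and Gata2 were -0.23 and -0.34. Gata2 is also a member of the mast cell list described further on, whose other genes were lower too.

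Progenitor surface markers did not shift in one direction. Of 21 measured, 9 were higher and 12 lower, 4 were without overlap on either side, none passed, and the median was -0.14. With ΔOM-LZ replicate 1 left out the counts were 11 and 10 and the median 0.02. Cd27, a TNF receptor family member of multipotent progenitors, read 8.45, 7.95 and 8.36 with ΔOM-LZ and 9.77, 10.36 and 9.85 with the minimal fusion. The difference was 1.74 (SE 0.23, a fold of 3.33), without overlap, and its limma adjusted p of 0.0584 missed the threshold. It passed when MIG replicate 1 or 3 was left out (adjusted p = 0.0327 and 0.0415).

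Flt3, the receptor of early lymphoid and myeloid progenitors, read 7.31, 6.18 and 7.58 against 8.84, 7.98 and 8.38 (1.37, limma adjusted p = 0.999). Its ΔOM-LZ arrays were widely spread and CALM-AF10 arrays, at 8.23, 6.86 and 8.62, spanned both groups. Cd34, read after its value was seen, was 11.86, 10.84 and 11.76 against 12.24, 12.28 and 11.90 (0.65), and Cd48 differed by 0.58 (limma adjusted p = 0.999 and 0.935). Il7r, the interleukin-7 receptor, went the other way at -1.74, with ΔOM-LZ replicate 1 at 9.33 and the other arrays of that group at 6.82 and 6.38, and it was -0.83 without that array. Csf2rb, the common beta chain of cytokine receptors, and Il6st, the shared signalling chain of the interleukin-6 family, differed by -0.53 and -0.64, and that of Csf2rb was -0.29 without ΔOM-LZ replicate 1.

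**Figure D2:**
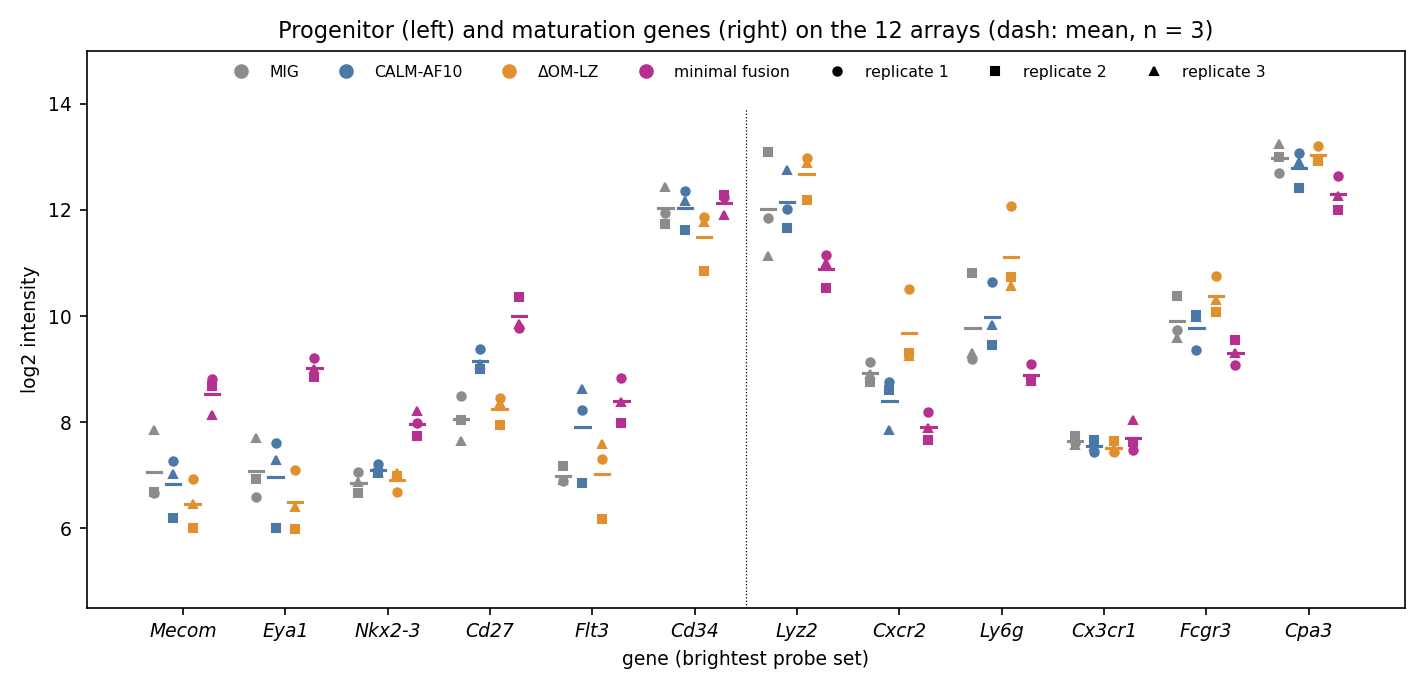
Log2 intensity of 6 progenitor genes and 6 maturation genes, picked by hand with their values known, on the 12 arrays (brightest probe set of each). Points are arrays, dashes the mean of 3, colour the construct and shape the replicate number. The 6 progenitor genes drawn all had a higher mean in the minimal fusion than in ΔOM-LZ. Of all 48 measured progenitor genes, 29 were higher and 19 lower. Mecom, Eya1, Nkx2-3 and Cd27 are highest in the minimal fusion on all of its arrays; Lyz2, Cxcr2, Ly6g, Fcgr3 and Cpa3 are lower in it than in ΔOM-LZ, and Cx3cr1 overlaps.

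The 12 highest and the 12 lowest moderated statistics of the whole comparison set the named genes in order. Beside the HOXA genes, Mecom, Cd27, Nkx2-3 and Eya1, the highest held the predicted genes Gm5111 (1.11, limma adjusted p = 0.176) and A630072M18Rik (0.65, limma adjusted p = 0.282). All 12 of the highest were higher in the minimal fusion than in CALM-AF10, a comparison that shares the minimal fusion arrays. In the pair of groups that share no array with the comparison, 10 of the 12 had a higher mean with CALM-AF10 than with MIG, by a median of 0.24. The others, Mecom on its brighter probe set and Eya1, stood at -0.24 and -0.11.

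The 12 lowest were genes of differing function, and none passed the adjusted threshold. Kcnma1, a potassium channel, read 5.93, 5.74 and 5.69 with ΔOM-LZ and 4.81, 5.09 and 5.16 with the minimal fusion (-0.76, limma adjusted p = 0.0796). MIG and CALM-AF10 averaged 4.99 and 5.21, so ΔOM-LZ was the group that stood apart, and the other Kcnma1 probe set differed by -0.07. Klf5, a Krüppel-like factor, also had its highest mean in ΔOM-LZ, at 8.45, beside 7.79 in the minimal fusion, 7.92 in MIG and 7.85 in CALM-AF10. Its difference was -0.67 (limma adjusted p = 0.320).

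Mocos, the molybdenum cofactor sulfurase, differed by -0.94 (limma adjusted p = 0.256). Gas7, a cytoskeletal adaptor, differed by -1.12, Stx11, a syntaxin of cytotoxic granule release, by -1.15, and Syne1, which links nuclei to the cytoskeleton, by -1.01 on one probe set and -1.08 on the other. Pilrb2, an immunoglobulin-like receptor, differed by -1.49, and Aph1c (-0.70), Arap3 (-0.54), Tbc1d24 (-0.50) and the predicted gene A530064D06Rik (-0.93) completed the 12 together with Cxcr2. Apart from Kcnma1 and Mocos, adjusted p ran from 0.320 to 0.347 in limma. In the independent pair, 9 of these 12 were lower in CALM-AF10 than in MIG, by a median of -0.24 over the 12.

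**Figure D3:**
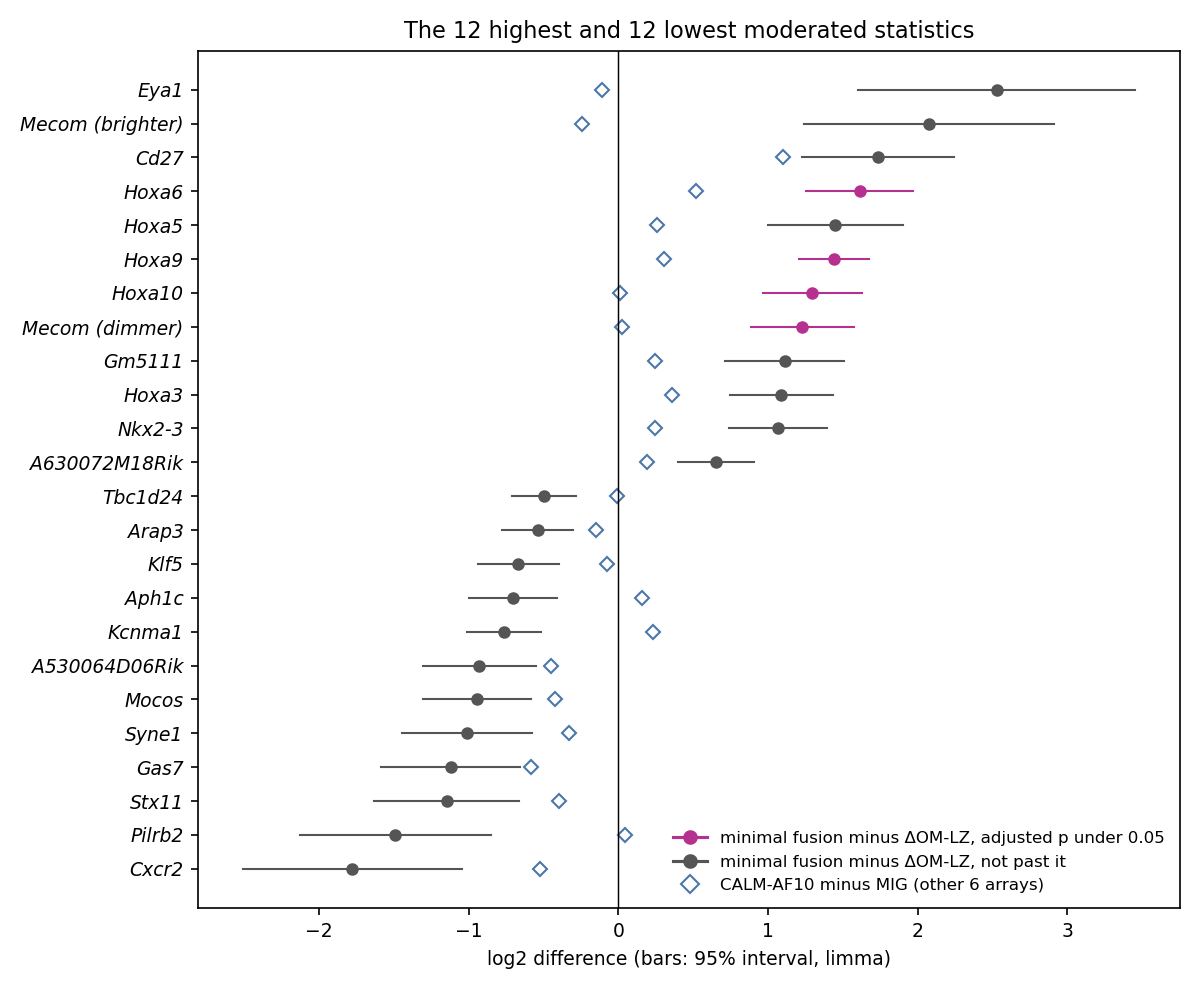
Log2 differences of the 12 highest and 12 lowest moderated statistics (filled points with 95% intervals from limma; colour marks an adjusted p under 0.05), with the CALM-AF10 minus MIG difference of the same probe set as an open diamond. The 4 coloured points are Hoxa9, Hoxa6, Hoxa10 and the dimmer Mecom probe set, and most diamonds lie nearer 0 than the filled point of their gene.

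Genes of mature myeloid cells were lower in the minimal fusion, by values spread more widely between arrays than those of the HOXA genes. Over 154 genes of 7 maturation lists, 127 were lower and 27 higher, and the median was -0.54. Groups did not overlap for 54 (35.1%) with the minimal fusion lower and 2 (1.30%) with it higher. The shares over all genes were 4.34% and 3.74%, and these also stand beside the counts of the lists below. None of the 154 passed the adjusted threshold. Over 48 progenitor genes (transcription factors and surface markers), 29 were higher and 19 lower with a median of 0.13. Leaving out ΔOM-LZ replicate 1, the maturation genes were 131 lower and 23 higher with a median of -0.40, and the progenitor genes 33 higher and 15 lower with a median of 0.19. The progenitor median was 0.07 without ΔOM-LZ replicate 2 and 0.06 (25 higher, 23 lower) without minimal fusion replicate 1. These are arrays of a mixed population, so fewer cells of a type and less RNA per cell cannot be told apart.

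The maturation score put all 3 minimal fusion arrays below every other array. It was 0.48, 0.19 and 0.16 with ΔOM-LZ and -0.37, -0.45 and -0.34 with the minimal fusion. MIG arrays ran from -0.03 to 0.47 and CALM-AF10 arrays from -0.14 to -0.06. The progenitor score overlapped between the groups, at 0.11, -0.31 and -0.13 against 0.23, 0.02 and 0.05.

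**Figure D4:**
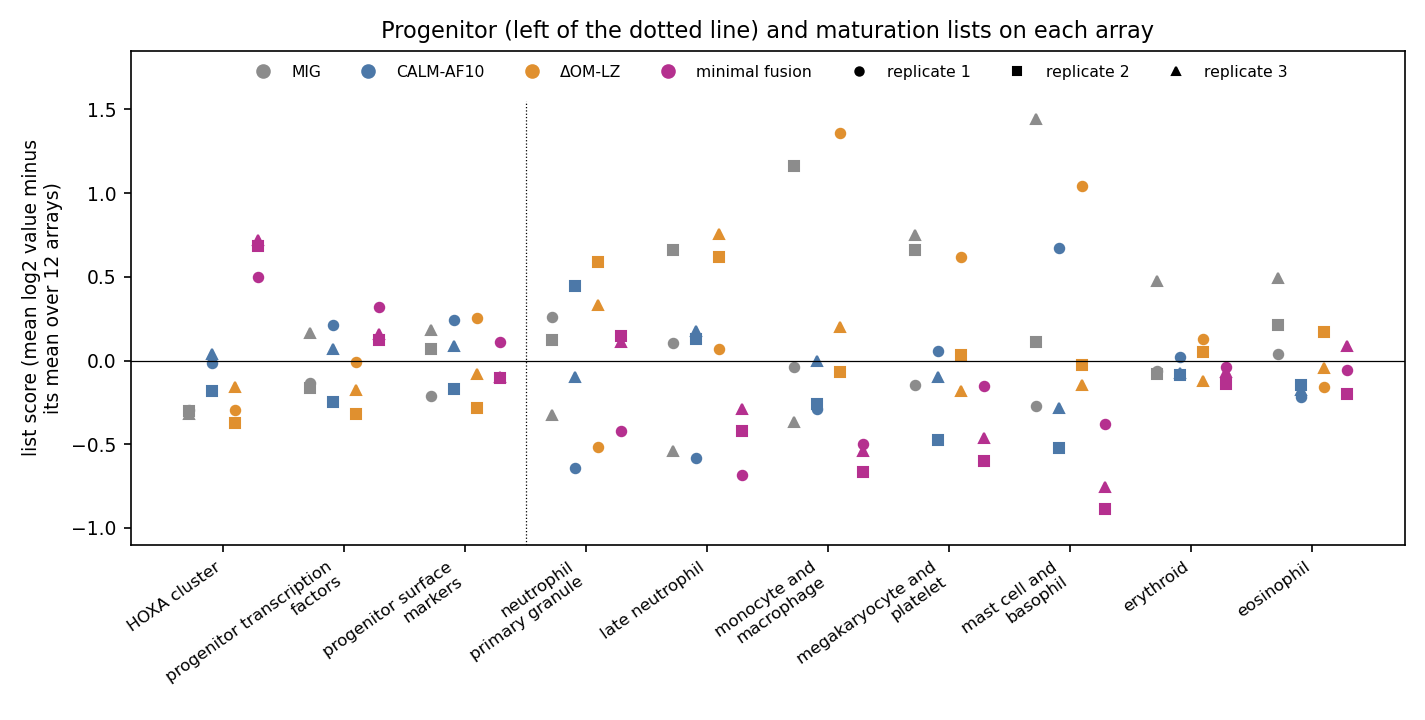
List score (mean over members of the log2 intensity minus its mean over 12 arrays) on each array, for 3 progenitor lists and 7 maturation lists; colour gives the construct and shape the replicate number. HOXA scores of the minimal fusion (0.50 to 0.72) lie above those of all other groups, its late neutrophil, monocyte and mast cell scores lie below those of ΔOM-LZ, and ΔOM-LZ replicate 1 is far above the other arrays of its group in the monocyte list (1.36) and the mast cell list (1.04).

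Genes of the late neutrophil, which are switched on as granulocytes leave the dividing stages, were lower with the minimal fusion than with ΔOM-LZ. Of 30 measured, 28 were lower and 2 higher, 14 were without overlap, none passed, and the median was -0.96. The score was 0.07, 0.62 and 0.75 with ΔOM-LZ and -0.68, -0.42 and -0.29 with the minimal fusion. MIG arrays scored 0.11, 0.66 and -0.54 and CALM-AF10 arrays -0.58, 0.13 and 0.18, so both groups overlapped the minimal fusion. Against MIG the median was 0.41 for ΔOM-LZ and -0.47 for the minimal fusion, so ΔOM-LZ also stood above the empty vector. With replicate 1 of ΔOM-LZ left out, which was the lowest of its group here, all 30 were lower and the median was -0.92. This list therefore did not rest on that array.

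Cxcr2, the chemokine receptor with which neutrophils leave the marrow, read 10.51, 9.31 and 9.25 with ΔOM-LZ and 8.20, 7.65 and 7.88 with the minimal fusion (-1.78, limma adjusted p = 0.320). Ly6g, the granulocyte surface antigen, read 12.07, 10.73 and 10.56 against 9.10, 8.81 and 8.78 (-2.22, limma adjusted p = 0.453). The arrays did not overlap, although ΔOM-LZ replicate 1 lay more than a full log2 unit above the rest of its group in both. Stfa2, a cysteine protease inhibitor of neutrophils, read 7.85, 8.90 and 9.30 against 5.82, 6.75 and 7.23 (-2.08, limma adjusted p = 0.561), and Lcn2, a siderophore-binding granule protein, differed by -1.05.

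The primary granule genes, which mark the promyelocyte stage that precedes, did not share that shift. Of 18 measured, 8 were higher and 10 lower, with 1 and 5 without overlap, and the median was -0.08. Elane, neutrophil elastase, read 9.94, 13.20 and 12.85 with ΔOM-LZ and 11.89, 13.16 and 12.92 with the minimal fusion, and the low ΔOM-LZ array was replicate 1. Its difference was 0.66 and turned to -0.37 without that array, and that of Ctsg, cathepsin G, turned from 0.24 to -0.0006. Without it, 17 of the 18 genes were lower and the median was -0.39. The median was 0.08 without minimal fusion replicate 1, so the list had no direction that held over single arrays.

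Some members of the list were lower on every array. Lyz2, the lysozyme of granulocytes and macrophages, read 12.97, 12.19 and 12.89 with ΔOM-LZ and 11.15, 10.52 and 11.01 with the minimal fusion (-1.79, limma adjusted p = 0.561). Serpinb1a, an inhibitor of the granule proteases, read 12.06, 11.51 and 11.49 against 10.94, 10.84 and 10.80 (-0.83, limma adjusted p = 0.514). Ctsc, the protease that activates granule proteases, differed by -0.50. Bpi was higher, at 0.22, near the low end of the intensity scale.

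Monocyte and macrophage genes had the lowest median of the maturation lists, and it was also the one that moved most with ΔOM-LZ replicate 1. Of 30 measured, 29 were lower and 1 higher, 17 were without overlap, and the median was -1.12. The list score was 1.36, -0.07 and 0.20 with ΔOM-LZ and -0.50, -0.66 and -0.54 with the minimal fusion. When that replicate 1 was left out, 27 were lower and 3 higher and the median was -0.60. The groups were apart on all 3 arrays each, but the size of the difference came in large part from that array.

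Fcgr3, an Fc receptor of phagocytes, read 10.75, 10.07 and 10.31 with ΔOM-LZ and 9.07, 9.54 and 9.30 with the minimal fusion (-1.07, limma adjusted p = 0.514). Lgals3, the macrophage galectin, read 11.83, 10.67 and 11.15 against 10.49, 9.60 and 9.70 (-1.29, limma adjusted p = 0.773). Neither gene overlapped between the groups. Klra2, a lectin-like receptor, differed by -0.75, and the chemokine receptor gene Cx3cr1 was the member that was higher, by 0.19 with overlap.

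Transcription factors of myeloid differentiation were lower for the most part. Of 17 measured, 14 were lower and 3 higher, 2 were without overlap as lower and 1 as higher, and the median was -0.32. Irf5 and Maf, which act in macrophages, differed by -0.70 and -1.08 without overlap, and Maf stood at 8.78 on ΔOM-LZ replicate 1 against 7.06 and 6.91 on the others, so that its difference was -0.48 without that array. Cebpa, needed for the granulocyte lineage, differed by -0.28 with overlap. Runx3 was higher by 0.31, and Gfi1, a repressor in neutrophil precursors, was higher by 0.32 but lower by 0.19 without ΔOM-LZ replicate 1. All had a limma adjusted p of 0.999.

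Among the ID genes, whose proteins block basic helix-loop-helix factors, Id2 read 12.32, 10.80 and 10.66 with ΔOM-LZ and 10.22, 9.58 and 9.68 with the minimal fusion. Its difference was -1.43 without overlap (limma adjusted p = 0.999), and -0.90 without ΔOM-LZ replicate 1. The median of the 4 family members was -0.04.

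Mast cell and basophil genes were lower for every member. All 26 measured were lower, 12 without overlap, and the median was -0.76. The score was 1.04, -0.03 and -0.14 with ΔOM-LZ and -0.38, -0.89 and -0.75 with the minimal fusion. Leaving out ΔOM-LZ replicate 1 gave 21 that were lower and 5 higher, and a median of -0.48. A MIG array had the highest score of the series, 1.44, so this list also varied within groups without a fusion.

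Cpa3, the mast cell carboxypeptidase, read 13.21, 12.92 and 12.96 with ΔOM-LZ and 12.64, 12.01 and 12.26 with the minimal fusion (-0.73, limma adjusted p = 0.773). Mcpt2, a mast cell protease, read 8.39, 9.99 and 7.28 against 5.23, 6.58 and 5.77 (-2.69, limma adjusted p = 0.794). Mitf, a mast cell and melanocyte factor, differed by -0.94 on its brighter probe set (-0.60 without ΔOM-LZ replicate 1) and by -0.03 on one near the lower limit of the scale. Tph1, which makes serotonin in mast cells, is in none of the lists and differed by -2.94.

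Platelet genes were also lower for most members, with fewer of them separated. Of 20 measured, 16 were lower and 4 higher, 3 without overlap as lower and 1 as higher, and the median was -0.44. Ppbp, a platelet chemokine precursor, read 12.18, 10.12 and 8.41 with ΔOM-LZ and 7.98, 7.52 and 7.03 with the minimal fusion (-2.72, limma adjusted p = 0.999). Its ΔOM-LZ arrays spanned nearly 4 log2 units, so the mean of that group is poorly fixed. Pf4, platelet factor, and F2rl2, a thrombin receptor family member, differed by -1.28 and -1.26 with overlap, and Mylk, myosin light chain kinase, was higher by 0.57 without overlap. With ΔOM-LZ replicate 1 left out, Ppbp differed by -1.75, Pf4 by -0.68 and F2rl2 by -0.78, and the median was -0.24.

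Erythroid and eosinophil genes had medians near 0. Of 23 erythroid genes, 15 were lower and 8 higher with a median of -0.05, and the groups did not overlap for 1 member, Car1, a carbonic anhydrase (-0.71). Gata1, the master factor of red cells and megakaryocytes, differed by -0.87 and Tfrc, the transferrin receptor, by 0.45, both with overlap. Without ΔOM-LZ replicate 1, Car1 differed by -0.33 and Gata1 by -0.41, and Tfrc ran from 0.03 to 0.83 without minimal fusion replicate 2 or 1. Of 8 eosinophil genes, 4 were higher and 4 lower with a median of -0.01, and Alox15 was lower by 0.57 without overlap.

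**Figure D5:**
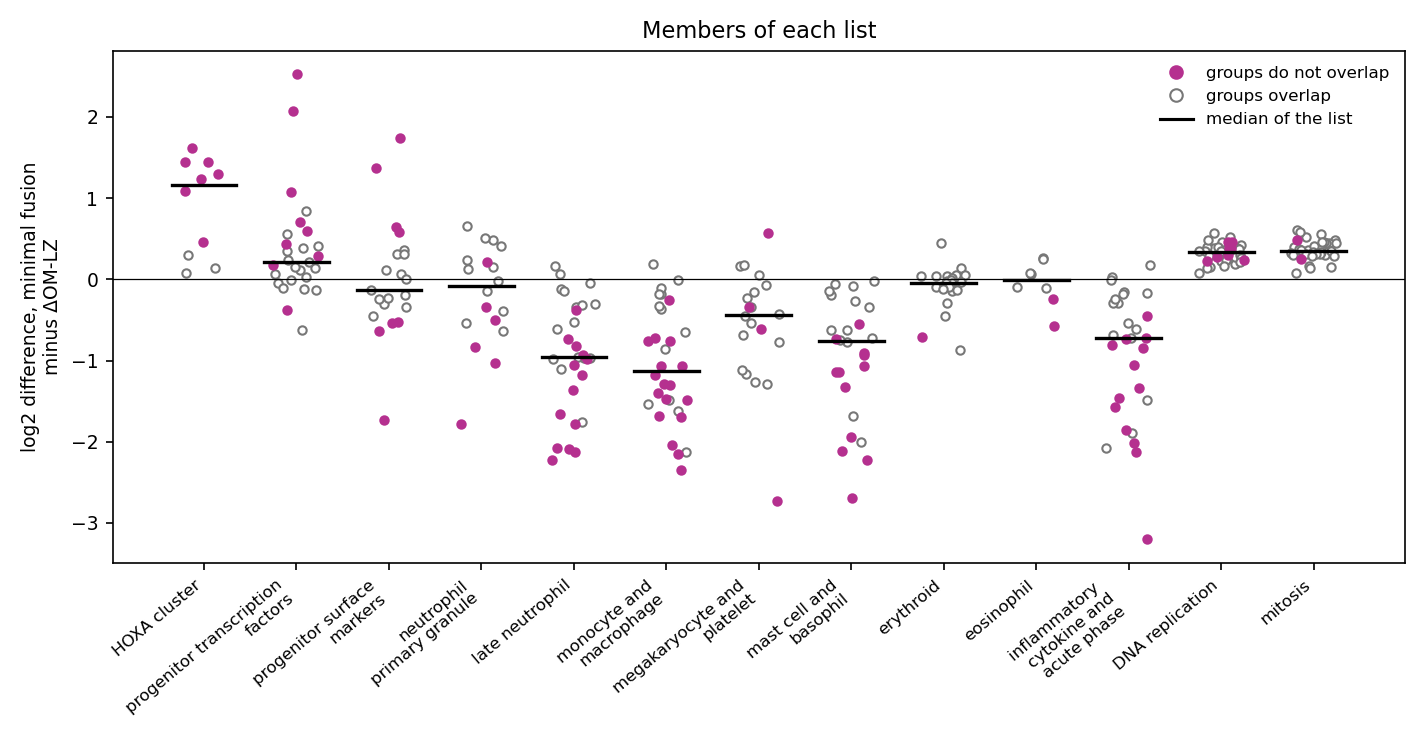
Log2 difference, minimal fusion minus ΔOM-LZ, of each measured member of 13 lists (filled where the 3 arrays of one group do not overlap the 3 of the other, open where they do) with the median of the list as a line. HOXA genes have a median of 1.16, late neutrophil genes -0.96, monocyte genes -1.12 and mast cell genes -0.76, while erythroid and eosinophil genes centre near 0.

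The 8 largest negative differences without overlap were in genes of secreted, granule and surface proteins and of enzymes, and none passed the adjusted threshold. Saa3, an acute phase serum amyloid, read 11.78, 9.60 and 11.59 with ΔOM-LZ and 8.44, 6.88 and 8.05 with the minimal fusion (-3.20, SE 0.89, limma adjusted p = 0.747). Tph1, Ppbp and Mcpt2 followed, then Bst1, an ectoenzyme of marrow stroma and myeloid cells (-2.58), Pla2g7, a phospholipase of macrophages (-2.55, and -1.47 without ΔOM-LZ replicate 1), Maob, a monoamine oxidase (-2.54), and Clec4a1, a lectin of myeloid cells (-2.38). Adjusted p for the 8 ran from 0.628 to 0.999 in limma. In 7 of the 8, ΔOM-LZ replicate 1 was the highest array of its group; the exception was Mcpt2. Among the largest positive differences, Chad, a cartilage matrix protein, read 7.10, 7.24 and 6.96 against 8.61, 10.01 and 8.08 (1.80, limma adjusted p = 0.514).

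Over all genes, 206 (1.03%) were lower in the minimal fusion by more than a full log2 unit and 17 (0.0853%) were higher by as much. The negative differences were thus larger, but none of them passed, and the 4 that passed were positive with a small spread. Inflammatory and acute phase genes were mostly lower: 27 of 29 were lower, 13 without overlap, with a median of -0.73 and of -0.67 without ΔOM-LZ replicate 1. Ccl6, a chemokine of myeloid cells, read 12.86, 11.94 and 11.97 with ΔOM-LZ and 11.33, 10.09 and 10.64 with the minimal fusion (-1.57, limma adjusted p = 0.514).

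Genes of dividing cells were higher with the minimal fusion than with ΔOM-LZ by small amounts. All 39 DNA replication genes were higher, 8 (20.5%) without overlap, with a median of 0.34. All 34 mitosis genes were higher, 2 (5.88%) without overlap, with a median of 0.35. Over all genes 3.74% were higher without overlap, so the mitosis count was near that share. No gene of either list passed the adjusted threshold. Against MIG the mitosis median was 0.01 for the minimal fusion and -0.33 for ΔOM-LZ, so here the minimal fusion stood near the empty vector. The replication medians against MIG were 0.27 for the minimal fusion and -0.03 for ΔOM-LZ. The mitosis score was -0.58, 0.27 and -0.18 with ΔOM-LZ and -0.01, 0.45 and 0.15 with the minimal fusion, so the groups overlapped. Pole, the catalytic subunit of a leading-strand polymerase, differed by 0.46 and Prim1, the primase, by 0.39, both without overlap, and Ttk, a spindle checkpoint kinase, by 0.61 with overlap (limma adjusted p = 0.999 for each).

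These medians moved with single arrays. Leaving out ΔOM-LZ replicate 1, the mitosis median was 0.14 and the replication median 0.24. The replication median ran from 0.19 without minimal fusion replicate 2 to 0.51 without ΔOM-LZ replicate 2, and the mitosis median reached 0.60 without the latter array. The p53 target genes were lower for 20 of 23 with a median of -0.24, among them Fas, the death receptor (-0.90, without overlap). Their median ran from -0.46 without ΔOM-LZ replicate 2 to -0.14 without replicate 1 of that group, where 17 were lower. Interferon response genes, with 19 of 28 higher, and glycolysis genes, with 13 of 32 higher, had medians of 0.08 and -0.08.

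Lists of cells outside the myeloid lineage had medians near 0, from -0.07 for endothelial and adipocyte genes to 0.00 for fibroblast and producer-line genes. Of 28 fibroblast and producer-line genes 14 were higher and 14 lower with a median of 0.00, and the log2 of their mean linear intensity ran from 7.36 to 7.84 with ΔOM-LZ and from 7.66 to 7.81 with the minimal fusion. Of 17 B cell genes 7 were higher, of 20 T and NK cell genes 9, of 20 dendritic and MHC class II genes 8, and of 17 endothelial and adipocyte genes 6. The log2 of the mean linear intensity of T and NK cell genes ran from 6.79 to 7.05 with ΔOM-LZ and from 7.07 to 7.41 with the minimal fusion. For endothelial and adipocyte genes it ran from 7.32 to 7.41 and from 7.17 to 7.24. Those of the B cell and dendritic lists overlapped. Thy1, which stands in both the fibroblast and the T cell list, was higher by 0.50 without overlap. For monocyte genes the same quantity ran from 8.81 to 10.15 with ΔOM-LZ and from 8.21 to 8.27 with the minimal fusion. For mast cell genes it ran from 10.54 to 11.41 and from 10.02 to 10.37. The part that any of these cells has in the other differences was not tested.

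The minimal fusion was then set against the full CALM-AF10 fusion, which also keeps OM-LZ. That comparison shares the minimal fusion arrays with the one above, and its values are given side by side. Of 23410 probe sets 1 (0.00427%) passed, Hoxa9, which was higher in the minimal fusion by 1.08 (limma adjusted p = 0.0161). Hoxa6 was higher by 1.09 and Hoxa10 by 1.17, with limma adjusted p of 0.283 and 0.113. All 10 HOXA genes were above their CALM-AF10 level, with a median of 0.73 beside the 1.16 against ΔOM-LZ. The Hoxa9 call was lost without any one of the CALM-AF10 or minimal fusion arrays, or without ΔOM-LZ replicate 3.

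The monocyte, late neutrophil and mast cell lists had medians below 0 against CALM-AF10 as well, of smaller size. Monocyte genes had a median of -0.35 against CALM-AF10 beside -1.12 against ΔOM-LZ, late neutrophil genes -0.28 beside -0.96, and mast cell genes -0.38 beside -0.76. Mitosis genes had 0.40 beside 0.35. Against MIG, which also shares the minimal fusion arrays, Hoxa9 was higher by 1.39, Hoxa6 by 1.61, Hoxa10 by 1.18 and Cd27 by 1.93 (limma adjusted p = 0.00132, 0.0111, 0.0383 and 0.0359).

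CALM-AF10 against MIG shares no array with the comparison and also sets OM-LZ against its absence. MIG is the empty vector, however, so that pair is a whole fusion against no fusion and does not isolate OM-LZ. HOXA genes had a higher mean in CALM-AF10 for 10 of 10 members, with a median of 0.23 beside 0.007 over all genes. Groups did not overlap for Hoxa3, Hoxa6, Hoxa7 and Hoxa9 and overlapped for the other members. Over all genes 5.94% had CALM-AF10 above MIG without overlap and 3.27% below. Hoxa9 differed by 0.30, Hoxa6 by 0.52, Hoxa10 by 0.01 and Cd27 by 1.10 there, and none of them passed (limma adjusted p = 0.833, 0.767, 0.9997 and 0.543). Late neutrophil genes had a median of -0.15, monocyte genes -0.38, mast cell genes -0.39 and mitosis genes -0.36. Across the 19938 genes the log2 differences of the independent pairs correlated with r = 0.38 and had the same sign for 57.5%, and genes are not independent points.

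Whether the difference between the minimal fusion and ΔOM-LZ was other than that between CALM-AF10 and MIG was tested for each probe set. None of 23410 passed (limma), 665 (2.84%) had an unadjusted p under 0.05, and the smallest adjusted p was 0.278, for Hoxa9. Its difference of differences was 1.14, that of Hoxa10 1.29 and that of Hoxa6 1.09, and the 95% interval for Hoxa9, not adjusted for the number of probe sets, ran from 0.81 to 1.47. With MIG replicate 2 left out the count was 2, Hoxa9 and Mgarp, a mitochondrial protein gene named after its value was seen.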

How the data were processed

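The authors deposited 1 log2 intensity for each probe set on each array. Per the submitters' processing notes, Affymetrix Expression Console was used; the version and the way arrays were summarized and normalized were not stated there. That the scale is log2 was inferred from the range, 2.88 to 14.27. A platform annotation named 23410 of 35556 probe sets: 21789 with 1 symbol, 1621 with several and 12146 with none. Arrays give no read depth, and 3 arrays per group limit the precision; an exact permutation test of 3 against 3 cannot go below p = 0.1.

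The test was limma 3.58.1 (lmFit, eBayes; R 4.3.3) with 1 mean per construct over 12 arrays (8 residual and 2.83 prior degrees of freedom), two-sided, Benjamini-Hochberg over 23410 probe sets, threshold 0.05, with no replicate block. A change is described by the difference of group means; groups without overlap have all arrays of one above all of the other. The labels call replicates biological without saying what a number shares, so p-values measure the spread between these samples. Lists are described by counts and medians, with the brightest probe set for a gene. Named genes were those called, the 12 highest and 12 lowest moderated statistics, the 8 largest positive and 8 largest negative differences without overlap, HOXA genes, cofactors, Mllt10 and Dot1l, and up to 3 at either end of each list; exceptions are named as seen afterwards. Members and lists were chosen with earlier results of these data known. Promoters and miRNAs are from RefSeq (GRCm38.p6). Alternatives covered the arrays in the fit, variance prior, normalization, probe sets tested, dim probe sets, replicate block and single arrays left out.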

Additional observations from a re-analysis of the deposited data

Results flagged for a closer look

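Outside the tested set, 12146 probe sets had no gene symbol in the annotation used. When every probe set was tested together, 11 of them (0.0906%) passed as higher in the minimal fusion than in ΔOM-LZ and 0 as lower, with log2 differences from 0.78 to 3.05 and adjusted p from 0.00608 to 0.0496 (limma). They are listed because they lie outside the probe sets that the comparisons use. All 11 had every minimal fusion array above every MIG array as well. Their targets are unnamed here, and whether they read genes or array controls was not examined.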

How the results depend on the processing

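The count of 4 was 8 with a trended, robust variance prior (7 higher, and Kcnma1 lower with adjusted p = 0.0455), 2 with arrays centred on their median, 17 over every probe set (6 with 1 symbol and 11 without), and 0 on the 6 arrays alone, where 936 had an unadjusted p under 0.05. Leaving out single arrays gave 1 to 5, with Stx11 called lower without MIG replicate 1 (adjusted p = 0.0386). The difference of differences, with a count of 0, gave 0 to 2 and the minimal fusion against CALM-AF10, with a count of 1, gave 0 to 1. Whether the replicate numbers pair the samples was not settled. Deviations of same-numbered minimal fusion and ΔOM-LZ arrays correlated with r = 0.62, 0.07 and -0.07, and 1 of 3 numbers matched best with itself. With the number as a block the count was 3, Hoxa10 being lost, and that against CALM-AF10 was 0. In the main comparison 1088 probe sets then had an unadjusted limma p under 0.05, beside 960 without the block. The HOXA median was 1.37 with dim probe sets left out and 0.9999 to 1.26 without single arrays; the combined maturation median was -0.74 and -0.56 to -0.40.

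Of 98 named probe sets, 90 kept their sign under up to 20 alternatives each. With single arrays left out the sign turned for 8, whose values ran from -0.044 to 0.22 (Hoxa11), -0.071 to 0.087 (Pbx2), -0.13 to 0.18 (Pbx3), -0.11 to 0.16 (Dot1l), -0.096 to 0.080 (Mllt10), -0.19 to 0.74 (Gfi1), -0.0006 to 0.38 (Ctsg) and -0.37 to 1.26 (Elane). The cause was not tested. Signal near the lower end of the scale limits Hoxa2, Hoxa11, Hoxa13, Skida1 and Kcnma1. The called Mecom probe set and that of Hoxa3, at percentiles of 33.0 and 33.9 by mean level, were among the dim probe sets left out.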
